A study of Mus musculus with 18 samples.

Results

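SOX proteins are transcription factors that bind DNA through an HMG box and are sorted into subgroups by the similarity of that domain. Here 9 named genes of this family, with roles in neural stem cells and glia, were followed: the SoxB1 genes Sox1, Sox2 and Sox3, the SoxB2 gene Sox21, the SoxD genes Sox5, Sox6 and Sox13, and the SoxE genes Sox8 and Sox9. The rule lists them by name and uses no measured value, but the list was drawn up with earlier results of these data known. The table held 27997 genes, and all 9 Sox genes were in it and passed the filter on low values in every comparison.

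Cultured neural stem cells (NSCs) were compared with the astrocytes made from them by bulk RNA sequencing, in 3 mouse lines with 3 NSC and 3 astrocyte libraries each, 18 in all. The tdTomato line (label genotype DNGR-1 +/- Tom+/-) and the EYFP line (DNGR-1 +/- EYFP+/-) were grown from spinal cord cells marked by the history of DNGR-1 (Clec9a), a receptor best known from dendritic cells, whose Cre switches on a lasting fluorescent reporter; both are called traced lines below. The hippocampal line (DNGR-1+/+) was the reference for NSC behaviour. According to the study's methods it came from mice with Glast-driven Cre, a floxed Huwe1 gene and an EYFP reporter. Mice were 6 to 14 weeks old unless stated otherwise. NSCs were kept on laminin with EGF and bFGF, each at 20 ng/ml, and collected on day 4. Astrocytes had these factors withdrawn and BMP4 added at 20 ng/ml, renewed after 3 days, and were collected on day 6. Each line was a single culture line, and the replicates were passages 10 to 12 of it, so that no p-value below measures the spread between animals. Tests within a line, between the 2 traced lines or from a model of the 6 group means use the spread between cultures of a line. Where both traced lines are pooled against the hippocampal line, any gap separating tdTomato from EYFP cultures also enters the error. In the fate comparison over all lines, unequal changes of the lines enter it as well. Origin therefore cannot be told apart from line, genotype and region, and the fate comparison cannot be told apart from BMP4, growth factor withdrawal and days in culture.

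SoxB1 proteins keep neural progenitors in their undifferentiated state, and SOX21 is known to act against them at shared target genes. SOX9 drives the switch of neural progenitors to glia and stays on in astrocytes, whereas SOX8, its close relative, is known from oligodendrocyte development. SOXD proteins have no activation domain of their own and tune the action of SOXE proteins in glia and cartilage.

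The sequence before the transcription start is shown for 3 genes that carry separate results below and have a RefSeq window: Sox2, which rose between fates, Sox8, which fell, and Sox21, which differed between lines. Each sequence is the 250 bases before the start in the RefSeq promoter set (GRCm38.p6), read 5′ to 3′ on the strand of the gene. Capitals mark matches on either strand to the strings AACAAT or, in another SOX-like form, ACAAAG. They also mark the GC-rich string GGCGCC and the general promoter boxes, CCAAT for one and the string TATAAA for the other.
Sox2: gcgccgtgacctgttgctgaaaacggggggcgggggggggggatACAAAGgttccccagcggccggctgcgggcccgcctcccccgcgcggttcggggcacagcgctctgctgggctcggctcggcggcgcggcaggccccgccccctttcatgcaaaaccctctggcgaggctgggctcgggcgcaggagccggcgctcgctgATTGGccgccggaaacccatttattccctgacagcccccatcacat
Sox8: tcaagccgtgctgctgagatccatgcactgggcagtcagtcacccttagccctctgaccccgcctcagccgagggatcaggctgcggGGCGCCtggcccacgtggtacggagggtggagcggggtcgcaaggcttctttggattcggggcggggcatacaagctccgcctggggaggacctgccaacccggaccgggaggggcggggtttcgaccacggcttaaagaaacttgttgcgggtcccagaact
Sox21: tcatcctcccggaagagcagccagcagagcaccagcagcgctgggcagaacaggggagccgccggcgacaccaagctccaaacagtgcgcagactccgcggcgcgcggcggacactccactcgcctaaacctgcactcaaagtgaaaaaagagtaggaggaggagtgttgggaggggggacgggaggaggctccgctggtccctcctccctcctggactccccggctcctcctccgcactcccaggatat
The Sox2 window lies at chr3:34649745-34649994 on the plus strand, the Sox8 window at chr17:25570687-25570936 on the minus strand and the Sox21 window at chr14:118237031-118237280 on the minus strand. GC content was 72% for Sox2, 65.6% for Sox8 and 65.2% for Sox21, above the upper quartile (61.2%) and the median (52.4%) of 32851 RefSeq windows of the same length. The Sox2 window held 1 ACAAAG and 1 CCAAT (read as ATTGG on this strand), which 16.5% and 33.8% of all windows hold. The Sox8 window held 1 GGCGCC, which 9.59% of all windows hold, and the Sox21 window held none of the 5 strings. RefSeq gave such windows for 7 of the 9 genes, those of Sox1, Sox5, Sox6 and Sox13 included. Sox3 and Sox9 are named only.

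Values are given on the log2 scale of the deposited normalised table, so that a difference of 1 is a doubling. Within a group, the SD of a Sox gene ran from 0.01 to 0.57 (n = 3), with a median of 0.068, and Dixon's test for a stray sample marked no library over the 6 traced or all 9 libraries of a fate. Culture identity was checked on marker lists. Of 8 astrocyte markers, 7 were called higher in astrocytes than in NSCs, beside 42.1% of the 15448 genes tested. Aldh1l1 (0.09 higher) was not called. Egfr fell by 1.71 and the proliferation gene Mki67 fell by 6.21. Oligodendrocyte lineage markers were present in NSCs, with a summed log2 level of 15.79 to 16.09 against 13.66 to 15.07 in astrocytes, and 0 of 4 leukocyte markers in the table reached a normalised value of 10. Of 6 ependymal markers listed, 4 were in the table. In at least 1 library, 2 of these reached a normalised value of 10 in NSCs and 3 in astrocytes. Foxj1 was the highest (mean 10.05 in NSCs and 11.50 in astrocytes). Log2 values of Rsph1 were 2.97 to 4.29 in NSCs and 5.51 to 6.60 in astrocytes. Those of Ccdc153 were 1.76 to 3.02 and 2.34 to 6.02, and those of Dnah12 were 0.92 to 1.75 and 1.56 to 2.82. The part of these marker shifts in the Sox results was not tested. In bulk cultures, fewer cells of a type and less RNA per cell cannot be told apart.

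From NSC to astrocyte, the subgroups did not move as blocks. Pooled over the 3 lines, Sox2 and Sox9 rose about equally, Sox3, Sox8 and Sox13 fell, and Sox1, Sox5, Sox6 and Sox21 shifted by less than 0.4. By line, Sox2 rose more than Sox9 in tdTomato cultures (1.35 against 0.81) and less in hippocampal cultures (0.95 against 1.66). In EYFP cultures the rises were 0.88 and 0.81. All 9 genes passed the test, 4 upward and 5 downward, but 81.9% of the 15448 genes tested did so too (42.1% higher and 39.8% lower), and the count says nothing particular about Sox genes. With an absolute difference of at least 1 as well, the test called Sox2, Sox3, Sox8 and Sox9, against 24.7% of all genes. The fall of Sox3 was the largest among the 9, and 0.900% of all genes tested had a larger absolute change. The median over the 9 genes was -0.16, beside 0.02 over all genes.

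**Figure D1:**
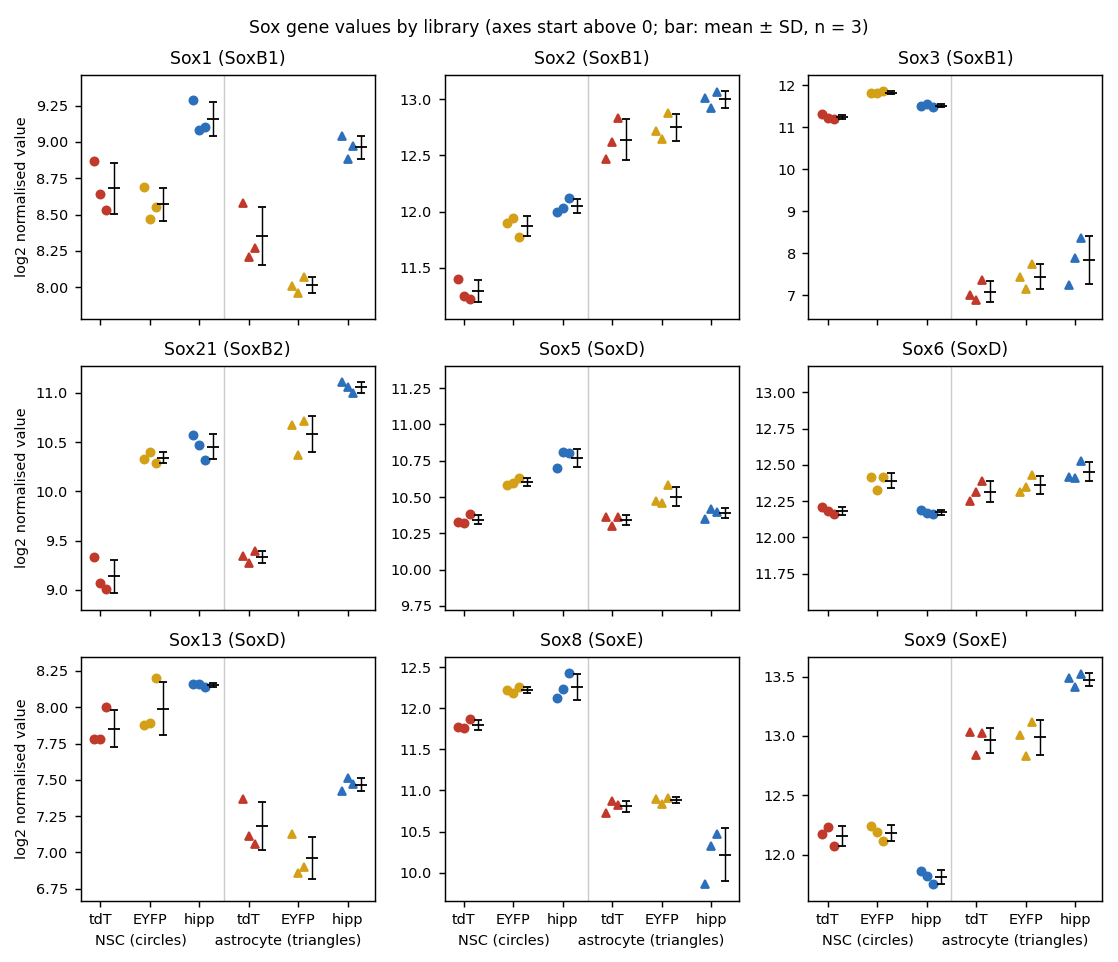
Log2 normalised value (vertical axis) of each Sox gene in every library, by line (tdT, tdTomato; EYFP; hipp, hippocampal) and fate (circles NSC, triangles astrocyte), with the mean and SD of 3 libraries beside the points. Sox3, Sox8 and Sox13 lie lower and Sox2 and Sox9 higher in every astrocyte library than in any NSC library, while Sox21 separates the tdTomato line from the others in both fates.

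Sox3, a single-exon gene at chrX:60891366-60893430 that is known from the earliest neural progenitors, was high in all NSC libraries. Its log2 value was 11.31, 11.22 and 11.21 in tdTomato NSCs, 11.81, 11.81 and 11.87 in EYFP NSCs and 11.52, 11.55 and 11.49 in hippocampal NSCs. In astrocytes it was 7.0, 6.88 and 7.36 in the tdTomato line, 7.42, 7.15 and 7.75 in the EYFP line, and 7.24, 7.88 and 8.37 in the hippocampal line. Every astrocyte library lay more than 2 log2 units below the lowest NSC library. The difference was -4.08 (SE 0.13, adjusted p = 8.0e-15 by limma), a 16.9-fold fall. By line it was -4.16 (SE 0.11) in tdTomato, -4.39 (SE 0.12) in EYFP and -3.69 (SE 0.22) in hippocampal cultures. The hippocampal astrocytes had the widest spread of any group among the 9 genes (SD 0.57), and the smaller fall there was not called different from the traced lines (-0.58, SE 0.24, adjusted p = 0.056). Without the first hippocampal astrocyte library that interaction was -0.88 (adjusted p = 0.001), and it also passed without the third tdTomato astrocyte library (-0.654, adjusted p = 0.034) or the third EYFP astrocyte library (-0.661, adjusted p = 0.03).

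Sox2, a single-exon gene at chr3:34650405-34652461 that holds neural stem cells in self-renewal, moved the other way. It stood at 11.40, 11.25 and 11.22 in tdTomato NSCs, 11.90, 11.94 and 11.77 in EYFP NSCs and 12.00, 12.03 and 12.12 in hippocampal NSCs. The astrocyte values were 12.47, 12.62 and 12.83 in tdTomato, 12.72, 12.65 and 12.88 in EYFP and 13.01, 12.92 and 13.07 in hippocampal cultures. All 9 astrocyte libraries were above all 9 NSC libraries. The rise was 1.06 (SE 0.07, adjusted p = 1.2e-10), or 2.08-fold, and by line it was 1.35 (SE 0.09), 0.88 (SE 0.07) and 0.95 (SE 0.05) in the tdTomato, EYFP and hippocampal cultures. The tdTomato rise exceeded the EYFP rise by 0.48 (SE 0.11, adjusted p = 0.0098). Mean Sox2 was lower in the tdTomato than in the EYFP line in both fates, by 0.58 in NSCs and by 0.10 (not called) in astrocytes. The long noncoding transcript Sox2ot, which runs over Sox2 on the same strand without sharing exon bases, was not called across lines (0.24, SE 0.17, adjusted p = 0.2). Sox2ot fell by 0.59 in the EYFP line (adjusted p = 9.7e-05), whereas it rose by 0.76 in the hippocampal line (adjusted p = 2.0e-04) and by 0.56 in the tdTomato line (adjusted p = 0.026).

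Sox1, which marks cells committed to the neural lineage, has its single exon at chr8:12395295-12400126. It was 8.87, 8.64 and 8.53 in tdTomato NSCs, 8.69, 8.47 and 8.55 in EYFP NSCs and 9.29, 9.08 and 9.10 in hippocampal NSCs. In astrocytes the values were 8.58, 8.21 and 8.27 in tdTomato, 8.01, 7.96 and 8.07 in EYFP and 9.04, 8.88 and 8.97 in hippocampal cultures. The fates overlapped once lines were pooled, since hippocampal astrocytes exceeded all traced NSCs. With line in the model, Sox1 fell by 0.36 (SE 0.07, adjusted p = 1.1e-04). The fall within the EYFP line was 0.56 (adjusted p = 1.7e-04). Within the tdTomato line (-0.32, adjusted p = 0.028) and the hippocampal line (-0.19, adjusted p = 0.038) the call was lost in several other fits. For the tdTomato line adjusted p was 0.11 with no filter, 0.079 with median centring, 0.057 with quantile normalization and 0.06 without a trend. For the hippocampal line it was 0.093 with no filter, 0.066 without a trend and 0.087 in the model of 6 group means. With a library left out, adjusted p reached 0.1 without tdTomato NSC replicate 1, was 0.051 without tdTomato NSC replicate 2, 0.095 without tdTomato astrocyte replicate 2 and 0.082 without tdTomato astrocyte replicate 3. In the hippocampal line it was 0.16 without NSC replicate 1, 0.13 without astrocyte replicate 2 and 0.066 without astrocyte replicate 3.

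Per kilobase of exon, the scale on which genes can be compared, Sox2 and Sox3 made up nearly equal parts of the SoxB1 sum in traced NSCs. Sox3 held 47.4% ± 0.878 (SD, n = 3) of it in tdTomato NSCs, 48.2% ± 2.06 in EYFP NSCs and 39.5% ± 1.32 in NSCs of the hippocampal line. Its share in astrocytes was 2.03% ± 0.203, 2.43% ± 0.302 and 2.74% ± 0.933 in the same order of lines. Sox2 then held 95.8%, 96% and 94.8%, and Sox1 stayed between 1.54% and 3.42% in all 6 groups. The log2 SoxB1 sum per kilobase was 11.28 ± 0.08 in tdTomato NSCs and 11.66 ± 0.17 in tdTomato astrocytes, 11.84 ± 0.02 and 11.76 ± 0.12 in the EYFP line, and 11.82 ± 0.02 and 12.04 ± 0.08 in the hippocampal line. The makeup of the subgroup thus changed far more than its sum. Within libraries, Sox2 minus Sox3 on the log2 scale was 0.04 ± 0.05, 0.04 ± 0.12 and 0.53 ± 0.09 in NSCs and 5.56 ± 0.15, 5.31 ± 0.18 and 5.17 ± 0.55 in astrocytes. The RefSeq start of Sox2 lies 410 bases upstream of the gene model used for lengths, and the longer model would lower its per-kilobase level by 0.26 on the log2 scale.

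**Figure D2:**
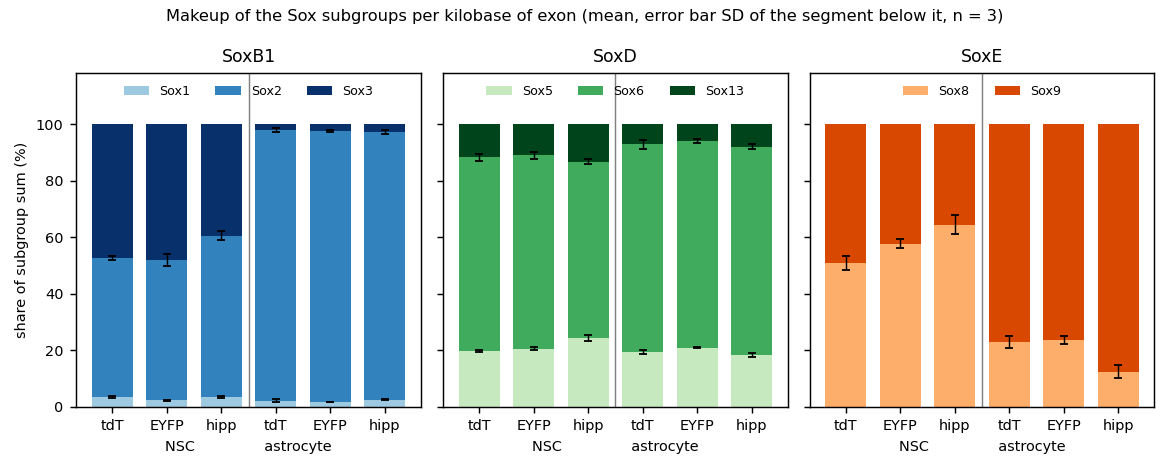
Share of the per-kilobase sum (vertical axis, percent) taken by each gene of the SoxB1, SoxD and SoxE subgroups in the 6 groups, as stacked means of 3 libraries with the SD of the segment under each bar end. Sox3 takes 39.5% to 48.2% of SoxB1 in NSCs and 2.03% to 2.74% in astrocytes, and Sox8 gives way to Sox9 within SoxE.

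Sox9 lies at chr11:112782224-112787760. Its values were 12.17, 12.23 and 12.07 in tdTomato NSCs, 12.24, 12.19 and 12.11 in EYFP NSCs and 11.86, 11.82 and 11.75 in hippocampal NSCs. They were 13.03, 12.84 and 13.02 in tdTomato astrocytes, 13.01, 12.83 and 13.12 in EYFP astrocytes and 13.49, 13.41 and 13.52 in hippocampal astrocytes. Fates did not overlap. The rise was 1.09 (SE 0.11, adjusted p = 2.7e-08), or 2.13-fold. It was the same size in both traced lines (0.81, SE 0.06 in tdTomato and 0.81, SE 0.07 in EYFP; difference 0.00, 95% interval -0.20 to 0.20) and larger in the hippocampal line (1.66, SE 0.05). The traced lines' rise was smaller by 0.86 (SE 0.08, adjusted p = 1.9e-07).

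Sox8, at chr17:25565892-25570686, went the opposite way from its relative. NSC values were 11.77, 11.76 and 11.87 in tdTomato, 12.22, 12.19 and 12.26 in EYFP and 12.12, 12.23 and 12.43 in hippocampal cultures. Astrocyte values were 10.73, 10.87 and 10.82 in tdTomato, 10.90, 10.84 and 10.91 in EYFP and 9.86, 10.33 and 10.47 in hippocampal cultures. Each astrocyte library was below each NSC library, and the 3 hippocampal astrocyte libraries were the lowest of all. The fall was -1.46 (SE 0.12, adjusted p = 4.3e-09), or 2.74-fold. By line the log2 difference was -0.99 (SE 0.05) in tdTomato, -1.34 (SE 0.04) in EYFP and -2.04 (SE 0.14) in hippocampal cultures. Traced and hippocampal falls differed by 0.88 (SE 0.13, adjusted p = 2.6e-05). Sox8 shares 329 exon bases with 2810468N07Rik on the opposite strand, and this transcript changed in parallel (-1.45, SE 0.11, adjusted p = 1.3e-09). Since the strand setting of the counting is not given in the sources used here, reads of the pair may not have been told apart.

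Within SoxE, Sox8 held 50.9% of the per-kilobase sum in tdTomato NSCs, 57.7% in EYFP NSCs and 64.4% in NSCs of the hippocampal line. In astrocytes it held 23%, 23.6% and 12.3%. Sox9 minus Sox8 within libraries was 0.36 ± 0.14, -0.04 ± 0.09 and -0.45 ± 0.22 in NSCs (mean ± SD, n = 3, log2) and 2.16 ± 0.17, 2.10 ± 0.11 and 3.25 ± 0.32 in astrocytes. The hippocampal line was thus at the low end of this difference in NSCs and at the high end in astrocytes. Over the 18 libraries the log2 values of Sox8 and Sox9 had a Pearson r of -0.96, a description of points that share lines and fates.

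Sox21, a single-exon SoxB2 gene at chr14:118233232-118237030, varied more with the line than with fate. In the tdTomato line it was 9.33, 9.07 and 9.01 in NSCs and 9.34, 9.27 and 9.39 in astrocytes. In the EYFP line it was 10.33, 10.40 and 10.29 in NSCs and 10.67, 10.37 and 10.71 in astrocytes. In the hippocampal line it was 10.57, 10.47 and 10.32 in NSCs and 11.11, 11.06 and 11.00 in astrocytes. All 6 tdTomato libraries lay below the other 12. The rise with fate across lines was 0.35 (SE 0.07, adjusted p = 1.3e-04), and it was called in the hippocampal line (0.60, SE 0.06, adjusted p = 1.0e-05) and the EYFP line (0.24, SE 0.08, adjusted p = 0.025) but not in the tdTomato line (0.20, SE 0.08, adjusted p = 0.057). The EYFP call was lost with no filter (adjusted p = 0.093), without a trend (0.066), without NSC replicate 1 (0.062) or 3 (0.063) and without astrocyte replicate 1 (0.091) or 3 (0.096). The tdTomato rise passed with median centring (adjusted p = 0.013), quantile normalization (0.013), the model of 6 group means (0.049) and without NSC replicate 1 (0.292, adjusted p = 0.0029). Sox21 shares 713 exon bases with the noncoding Gm4675 on the opposite strand, which ran from 3.31 to 5.32 over the 18 libraries and was not called between fates (-0.26, adjusted p = 0.15).

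The SoxD genes changed least. Sox13, at chr1:133382303-133424377, was the exception: it stood at 7.78, 7.78 and 8.0 in tdTomato NSCs, 7.88, 7.89 and 8.20 in EYFP NSCs and 8.16, 8.16 and 8.14 in hippocampal NSCs. In astrocytes it was 7.37, 7.11 and 7.06 in tdTomato, 7.13, 6.86 and 6.90 in EYFP and 7.42, 7.51 and 7.47 in hippocampal cultures. The fates did not overlap, and the difference was -0.80 (SE 0.07, adjusted p = 1.0e-08), with -0.67, -1.03 and -0.69 in the tdTomato, EYFP and hippocampal lines, each called.

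Sox5 (chr6:143828425-144781977) spanned 10.30 to 10.81 over all 18 libraries. Its values were 10.33, 10.32 and 10.38 in tdTomato NSCs against 10.36, 10.30 and 10.36 in tdTomato astrocytes, a difference of 0.00 (95% interval -0.09 to 0.09) whose sign changed with the scaling. In the hippocampal line it went from 10.70, 10.81 and 10.80 to 10.35, 10.42 and 10.40, and its log2 difference of -0.38 (SE 0.05, adjusted p = 3.7e-05) was apart from that of the traced lines by 0.33 (SE 0.05, adjusted p = 5.0e-05). In the EYFP line it was 10.58, 10.60 and 10.63 in NSCs and 10.47, 10.46 and 10.58 in astrocytes (-0.10, adjusted p = 0.084), a difference that was called in the model of 6 group means (adjusted p = 0.034) and without astrocyte replicate 3 (-0.141, adjusted p = 0.036). Across lines it was -0.16 (SE 0.05, adjusted p = 0.0038), and -0.113 with adjusted p = 0.061 when each library was centred on its median.

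Sox6 (chr7:115470872-116038796) had the narrowest range of the 9 genes, 12.16 to 12.53. In the hippocampal line it went from 12.19, 12.17 and 12.16 in NSCs to 12.42, 12.41 and 12.53 in astrocytes, a rise of 0.28 (SE 0.04, adjusted p = 1.9e-04). The tdTomato values were 12.21, 12.18 and 12.16 in NSCs and 12.25, 12.31 and 12.39 in astrocytes (0.13, adjusted p = 0.02), and the EYFP values were 12.42, 12.33 and 12.42 in NSCs and 12.31, 12.35 and 12.43 in astrocytes (-0.03, adjusted p = 0.65). The tdTomato call was lost without a trend in the fit (adjusted p = 0.054) and without NSC replicate 2 (adjusted p = 0.065), NSC replicate 3 (0.061) or astrocyte replicate 3 (0.085). Traced and hippocampal changes differed by -0.23 (SE 0.05, adjusted p = 0.0023). Within SoxD, Sox6 held 62.4% to 68.5% of the per-kilobase sum in NSCs and 73.2% to 73.8% in astrocytes.

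**Figure D3:**
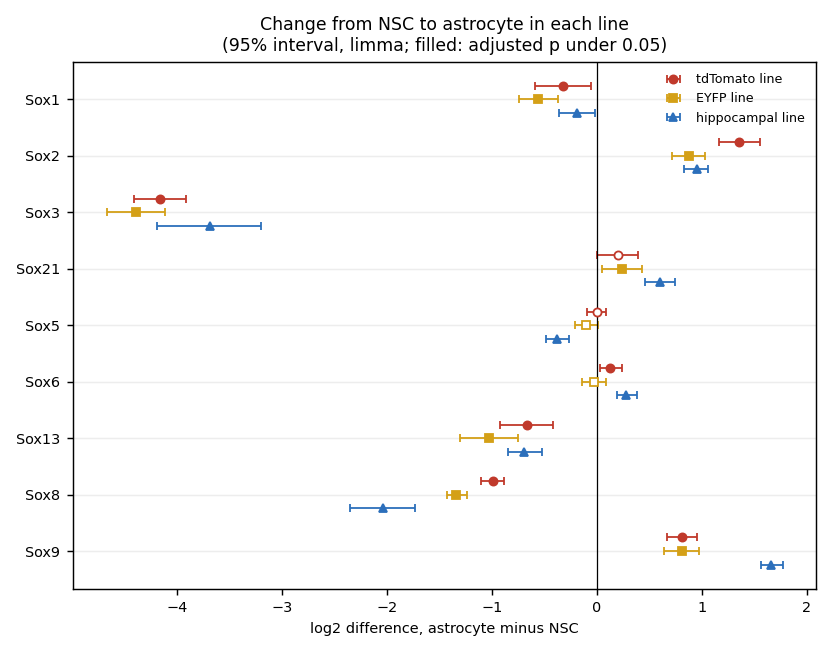
Log2 difference from NSC to astrocyte (horizontal axis) for each Sox gene in the 3 lines, with the 95% interval; filled symbols have an adjusted p under 0.05. Sox3 falls by more than 3 in each line, and the hippocampal line has the larger rise of Sox9 (1.66) and the larger fall of Sox8 (-2.04).

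Within single lines, 7 of the 9 genes were called in the tdTomato line (79.3% of all genes), 7 in the EYFP line (74.9%) and 9 in the hippocampal line (77.3%). For Sox1, Sox2, Sox3, Sox8, Sox9, Sox13 and Sox21 the sign of the difference was the same in the 3 lines, though Sox21 was not called in tdTomato. Whether the traced lines and the hippocampal line changed by different amounts was tested as an interaction, which called Sox5, Sox6, Sox8, Sox9 and Sox21, 5 of 9, against 46.2% of all genes. Sox1 (-0.25, adjusted p = 0.11) passed without tdTomato astrocyte replicate 1 (-0.304, adjusted p = 0.028), and Sox2 passed under quantile normalization (0.259, adjusted p = 0.038). Between the traced lines it called Sox2, 1 of 9, against 13.3%, and Sox8 (0.34, adjusted p = 0.14) passed without hippocampal astrocyte replicate 1 (adjusted p = 0.018).

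The origin comparison set the 6 traced libraries of a fate against the 3 hippocampal ones. In NSCs, 3 of 9 Sox genes were called, against 19.4% of all genes. Sox9 was 0.36 higher in traced NSCs (SE 0.05, adjusted p = 4.7e-04), Sox1 was lower (-0.54, SE 0.09, adjusted p = 0.0025) and Sox5 was lower (-0.30, SE 0.08, adjusted p = 0.029). The Sox9 and Sox1 differences were of like size in each traced line on its own, 0.34 and 0.37 for Sox9 and -0.48 and -0.59 for Sox1. The Sox5 call was lost with no filter (adjusted p = 0.065), without tdTomato NSC replicate 1 (0.052) and without any 1 of the hippocampal NSC replicates (0.06, 0.11 and 0.11 without replicates 1, 2 and 3). Sox2 (-0.47, SE 0.17, adjusted p = 0.082), Sox21 (-0.71, SE 0.34, adjusted p = 0.18) and Sox8 (-0.25, SE 0.13, adjusted p = 0.22) were not called. For these genes the traced lines differed between themselves: in a model of the 6 group means, tdTomato minus hippocampal was -0.76 for Sox2, -1.31 for Sox21 and -0.47 for Sox8, and EYFP minus hippocampal was -0.18, -0.11 and -0.04. In that model the gap between the traced lines stays out of the error (SE 0.09 for Sox21, tdTomato minus hippocampal). The model called 7 of 9 genes between NSC origins, against 33.5% of all genes, with Sox2 (adjusted p = 3.5e-05), Sox21 (8.4e-07), Sox8 (0.043) and Sox6 (0.03) added. Sox2 passed without EYFP NSC replicate 1 (adjusted p = 0.049) or replicate 2 (0.038), and Sox13 (-0.23, adjusted p = 0.11) passed without EYFP NSC replicate 3 (0.019). Sox3 differed by 0.02 with a 95% interval of -0.36 to 0.39, and its sign changed with median centring.

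In astrocytes, 6 of 9 Sox genes were called between origins, against 52.0% of all genes. Sox8 was 0.63 higher in traced astrocytes (SE 0.11, adjusted p = 6.7e-04). Lower were Sox1 (-0.78, SE 0.12, adjusted p = 3.7e-04), Sox9 (-0.50, SE 0.07, adjusted p = 1.2e-04), Sox13 (-0.40, SE 0.11, adjusted p = 0.012), Sox2 (-0.30, SE 0.08, adjusted p = 0.0099) and Sox21 (-1.10, SE 0.34, adjusted p = 0.021). In the model of 6 group means, 8 of 9 genes were called, against 60.9% of all genes, with Sox3 (-0.569, adjusted p = 0.0078) and Sox6 (-0.115, adjusted p = 0.016) added. In that model each of the first 6 was also called in each traced line on its own, at 0.59 and 0.67 for Sox8 and -0.51 and -0.49 for Sox9 in the tdTomato and EYFP lines. Sox21 was -1.72 in tdTomato and -0.47 in EYFP against hippocampal astrocytes, and its pooled call was lost with no filter (adjusted p = 0.053) and without any 1 hippocampal astrocyte library (adjusted p 0.067, 0.06 and 0.054 without replicates 1, 2 and 3). Sox3 (-0.57, adjusted p = 0.072) passed without hippocampal astrocyte replicate 1 (-0.865, adjusted p = 0.012) or EYFP astrocyte replicate 3 (-0.666, adjusted p = 0.034). Sox6 (-0.11, adjusted p = 0.063) passed without EYFP astrocyte replicate 3 (adjusted p = 0.033), and Sox5 differed by 0.03 (95% interval -0.10 to 0.16). The order of the origins turned with fate for Sox9, with both differences called. In the model of 6 group means it also turned, with both called, for Sox6 (0.113, adjusted p = 0.03 in NSCs) and Sox8 (-0.254, adjusted p = 0.043 in NSCs).

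**Figure D4:**
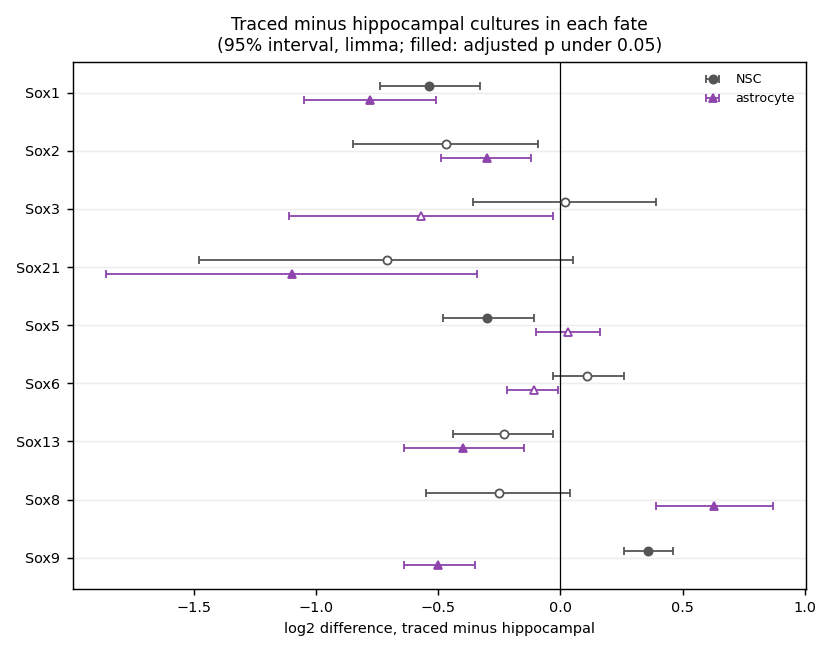
Log2 difference of traced minus hippocampal cultures (horizontal axis) for each Sox gene in NSCs (circles) and astrocytes (triangles), with the 95% interval; filled symbols have an adjusted p under 0.05. Sox9 is 0.36 higher in traced NSCs and 0.50 lower in traced astrocytes, and the intervals of Sox21 are the widest.

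The traced lines were also compared with each other. In NSCs the tdTomato line was lower than the EYFP line for 6 of 9 genes, against 33.2% of all genes called in either direction and 15.2% called lower. These were Sox21 (-1.20, SE 0.08, adjusted p = 4.9e-05), Sox3 (-0.59, SE 0.04), Sox2 (-0.58, SE 0.06), Sox8 (-0.42, SE 0.04), Sox5 (-0.26, SE 0.04) and Sox6 (-0.21, SE 0.04). For each of the 6 the 3 tdTomato libraries were below the 3 EYFP libraries. Sox1 (0.11), Sox13 (-0.14) and Sox9 (-0.03) overlapped and were not called, and for Sox9 the 95% interval was -0.15 to 0.09. Sox2ot was lower in tdTomato NSCs as well (-1.34, adjusted p = 0.002), and so was Gm4675 (-1.11, adjusted p = 0.013). In astrocytes 1 of 9 genes was called, against 11.2% of all genes: Sox21 again (-1.25, SE 0.09, adjusted p = 6.7e-05). The model of 6 group means, which called 15.1% of all genes there, also called Sox1 (0.340, adjusted p = 0.027) and Sox5 (-0.159, adjusted p = 0.014). The Sox21 gap between the traced lines did not change detectably with fate (difference -0.05, 95% interval -0.31 to 0.21), whereas that of Sox2 did, by 0.48.

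Per kilobase of exon, Sox2 ranked first of the 9 genes in every group, and Sox13 ranked last. Sox2 ran from 10.25 ± 0.10 in tdTomato NSCs to 11.96 ± 0.08 in hippocampal astrocytes on the log2 scale, and Sox13 from 4.85 ± 0.15 in EYFP astrocytes to 6.04 ± 0.01 in hippocampal NSCs. In tdTomato NSCs Sox2 (10.25 ± 0.10), Sox3 (10.20 ± 0.05), Sox8 (10.16 ± 0.06) and Sox9 (10.11 ± 0.08) lay within their spread of each other, so their order is not set there. With the longer RefSeq model of Sox2, its level in tdTomato and EYFP NSCs would fall below that of Sox3. In astrocytes Sox9 ranked second in each line, at 10.91 ± 0.11, 10.94 ± 0.14 and 11.43 ± 0.05, and Sox3 dropped to rank 8 in tdTomato, 7 in EYFP and 6 in hippocampal cultures. Using the longest transcript in place of all exons raised Sox5 by about 1 log2 unit (from 6.50 to 7.49 in tdTomato NSCs) and left Sox2 first and Sox13 last.

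**Figure D5:**
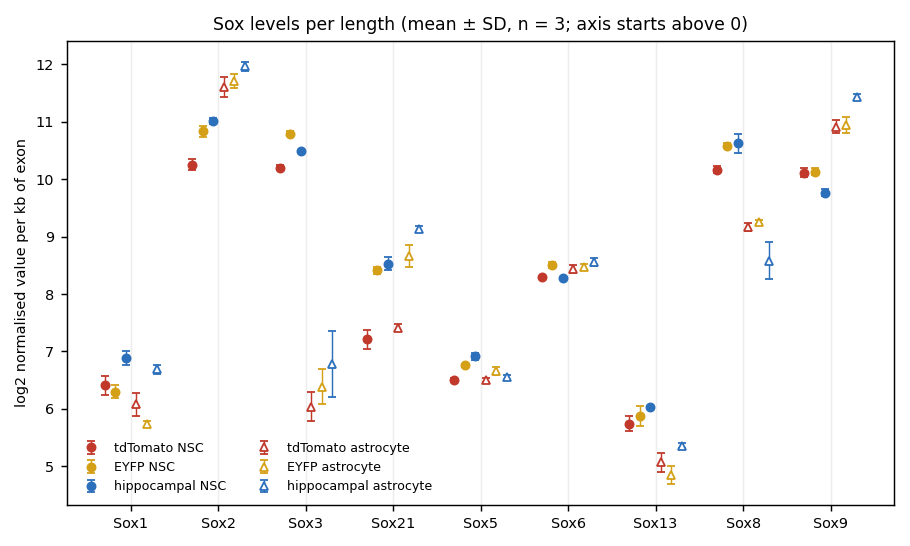
Log2 normalised value per kilobase of exon (vertical axis) of the 9 Sox genes in the 6 groups (filled circles NSC, open triangles astrocyte; mean and SD of 3 libraries). Sox2, Sox3, Sox8 and Sox9 lie close together in tdTomato NSCs, Sox2 is above Sox9 in hippocampal NSCs (11.01 against 9.76), and Sox3 separates downward in astrocytes to between 6.04 and 6.78.

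Ranked by group, hippocampal astrocytes had the highest Sox2, Sox9 and Sox21 means, and each was apart from the next group in every library (by 0.25, 0.49 and 0.47). Hippocampal NSCs had the highest Sox1, Sox5, Sox13 and Sox8 means, of which Sox13 and Sox8 overlapped with EYFP NSCs. For Sox3 the 3 NSC groups were apart from each other (11.83, 11.52 and 11.25 in EYFP, hippocampal and tdTomato), while neighbouring astrocyte groups overlapped. For Sox6 the first 4 groups overlapped with their neighbours, from 12.46 to 12.32.

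Other Sox genes were read from a list of 10, of which 8 were in the table and 3 passed the filter. All 3 were SoxC genes and were called lower in astrocytes, where 39.8% of all genes were called lower and 81.9% in either direction. Sox11 fell by 1.58 (SE 0.04, adjusted p = 8.3e-17), Sox4 by 0.89 (SE 0.07, adjusted p = 3.5e-09) and Sox12 by 0.25 (SE 0.04, adjusted p = 5.3e-06). Within the EYFP line Sox12 was not called (-0.11, adjusted p = 0.061). Sox10, the SoxE gene of the oligodendrocyte lineage and neural crest, was at or below 1.37 in every library, so that Sox8 and Sox9 were the SoxE genes that passed the filter.

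SOX proteins bind together with POU and PAX factors, and all 5 such genes listed were called between fates, 2 upward and 3 downward, where 81.9% of all genes were called. Pou3f1 fell by 3.48 (SE 0.07, adjusted p = 1.1e-17), Pou3f4 by 0.84 and Pou3f3 by 0.29, while Pou3f2 rose by 1.01 (SE 0.06) and Pax6 by 0.99 (SE 0.10). Within the tdTomato line Pou3f3 was not called (0.00, adjusted p = 0.99).

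Of 11 genes listed as neural targets or co-regulators, 5 rose, 3 fell and 3 were not called, beside 42.1% of all genes called higher and 39.8% called lower, with a median of -0.06 beside 0.02 for all genes. The astrocyte filament gene Gfap rose by 6.53, Mmd2 by 1.52, Nfix by 0.67, Nfia by 0.62 and Zcchc24 by 0.31. The progenitor filament gene Nes fell by 2.15, Apcdd1 by 1.26 and the lipid carrier gene Fabp7 by 0.76. The fall of Nes was in the traced lines, -3.18 in tdTomato and -3.05 in EYFP, while in the hippocampal line it went from 13.86 to 13.64 (-0.22, adjusted p = 0.058), and the interaction was called (-2.89, adjusted p = 1.6e-11). The 3 not called across lines were Nfib (-0.06), Notch1 (-0.08) and the Notch target Hes5 (-0.35, SE 0.38), and each had called changes of opposite sign in separate lines. Hes5 rose by 1.32 in the tdTomato line (adjusted p = 6.4e-04), was -0.12 in the EYFP line (adjusted p = 0.26) and fell by 2.26 in the hippocampal line (adjusted p = 8.5e-06). Notch1 was 0.35 higher in tdTomato astrocytes and lower in EYFP (-0.22) and hippocampal astrocytes (-0.39), and Nfib was higher in tdTomato (0.14) and lower in hippocampal astrocytes (-0.30). By line, 8 of the 11 rose and 3 fell in tdTomato (79.3% of all genes called), 5 rose and 4 fell in EYFP (74.9%), and 5 rose and 5 fell in hippocampal cultures (77.3%). Nfia, Apcdd1, Mmd2 and Zcchc24 are known as genes that work with or under SOX9 in early gliogenesis, and here they did not share a direction.

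Of 6 cartilage matrix genes, targets of SOX9 with SOX5 and SOX6 in chondrocytes, 4 passed the filter across lines. Col11a2 rose by 1.79 (adjusted p = 3.2e-09) and was called higher in each line. Col9a1 was not called across lines (-0.08, adjusted p = 0.72). It was 0.62 higher in hippocampal astrocytes (adjusted p = 0.0049), 0.19 higher in EYFP astrocytes (adjusted p = 0.24) and lower in tdTomato astrocytes (-1.04, adjusted p = 3.9e-04). Acan and Col2a1 passed the filter only through the fate in which they were higher, so their levels are given without a test. Acan ran from 2.81 to 4.10 in NSCs and from 1.36 to 2.18 in astrocytes. Col2a1 was 3.38 to 4.72 in hippocampal astrocytes, and its means in the other 5 groups were 1.58 to 2.11.

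The genes with the pattern most like a Sox gene were found by Pearson r over the 18 libraries among 11397 protein-coding genes, as a description. For Sox3 these were Mex3a (r = 0.996), Armcx4 (0.994) and Slc43a1 (0.994). For Sox2 they were Hepacam, an astrocyte adhesion gene (0.988), Nebl (0.985) and Eps15 (0.984), and for Sox9 Slc44a2 (0.991), Pdp1 (0.990) and Tango2 (0.988). Sox8 was nearest to Nemp2 (0.982), Rpl27a (0.979) and Cxxc4 (0.976), and Sox13 to Ccdc134 (0.966). The lists differed where a gene moved with the line: Sox21 was nearest to Csnk1d (0.975), Mamdc2 (0.965) and Pcdhga5 (0.963). Mamdc2 had group means of 5.92 and 6.90 in tdTomato NSCs and astrocytes against 8.91 to 10.07 in the other 4 groups. Sox1 was nearest to Dcxr (0.955) and Sox5 to the POU gene Pou3f3 (0.912). Among the 9 genes themselves, Sox3 followed Sox8 (0.92) and Sox13 (0.91), and Sox2 followed Sox9 (0.84). All of these points share the 3 lines and the fate contrast.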

How the data were processed

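Libraries were sequenced as single-end reads of 76 bp, at least 25000000 per sample per the labels, and the exact depth of each library cannot be read from the log2 values. Per the labels and the submitters' processing notes, the authors trimmed reads with Trimmomatic (0.36), aligned and quantified them on GRCm38 with STAR (2.5.2) and RSEM (1.3.0), and normalised them with DESeq2 (1.18.1) in R (3.4.3). The deposited table holds log2 values made by the authors. The transform is not named in the sources used here. Because such values are often shrunken, low genes can show compressed differences.

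Log2 values were fitted with limma (3.58.1, R 4.3.3, trend on the mean) across all genes that reached 10 on the linear scale (3.32 on log2) in at least 3 of the libraries compared. P-values were adjusted over all genes tested by the Benjamini-Hochberg method, with a threshold of 0.05. The fate fit over all lines had line as a term, single-line, origin and traced-line fits used the libraries compared, and interactions came from 1 model of the 6 group means. The line-by-line origin values came from that model too and were added after seeing the data. The script was tested on simulated data. Gene positions and lengths are from GENCODE M21 (GRCm38). Promoters are from RefSeq. The 9 genes were named in full, with fixed lists by count and up to 3 nearest patterns of each. The nearest patterns of Sox6 are not reported here. Members, lists and rules were chosen with earlier results of these data known. Alternatives were other filters, linear pseudocounts of 1 and 10, centring on medians, quantile normalization, no trend, a model of 6 group means, omission of each library and a block on replicate number.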

Additional observations from a re-analysis of the deposited data

Results flagged for a closer look

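The change from NSC to astrocyte differed between the traced lines and the hippocampal line for 5 of 9 Sox genes, beside 46.2% of all genes. Each was called by an interaction term in limma with adjusted p over all genes. As traced minus hippocampal change on the log2 scale, the difference was -0.86 for Sox9 (adjusted p = 1.9e-07), 0.88 for Sox8 (adjusted p = 2.6e-05), 0.33 for Sox5 (adjusted p = 5.0e-05), -0.23 for Sox6 (adjusted p = 0.0023) and -0.38 for Sox21 (adjusted p = 0.0073). Between the traced lines, the tdTomato change exceeded the EYFP change for Sox2 by 0.48 (adjusted p = 0.0098), 1 of 9 Sox genes beside 13.3% of all genes. No Sox gene had a stray library in 36 such tests, 1 for each gene over the traced libraries and over all libraries of each fate.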

How the results depend on the processing

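Of 1746 Sox results under alternatives, 1644 kept their direction and their side of the threshold, 35 lost the call, 41 gained it and 26 changed sign. Filters of 100 on the linear scale and both pseudocounts changed no call or sign. Sign changes were in differences that were not called in the results as reported. Under median centring these were Sox5 between fates in tdTomato (0.082), Sox6 between fates in EYFP (0.032) and Sox3 between origins in NSCs (-0.015). Under quantile normalization they were Sox5 in tdTomato (0.044) and Sox21 in the traced line by fate interaction (0.009). With the tdTomato line alone against the hippocampal line they were Sox3 in NSCs (-0.278) and Sox5 in astrocytes (-0.048), which the EYFP line alone called (0.111, adjusted p = 0.034). Leaving out a library gave ranges of -0.010 to 0.019 for Sox5 in tdTomato, -0.060 to 0.000 for Sox6 in EYFP and -0.052 to 0.080 for Sox3 between NSC origins. For Sox9 they were -0.065 to 0.016 between traced NSCs, -0.103 to 0.039 between traced astrocytes and -0.076 to 0.067 for the traced line by fate interaction, where Sox21 had -0.155 to 0.048. Counts moved by more than 1.5 times as follows. Between NSC origins, the 6 group means called 7 Sox genes and 4864 genes in all, and the tdTomato line alone 7 and 5680. Between traced astrocytes the 6 group means called 3 Sox genes. Without a filter, 2970 genes were called between traced NSCs and 975 between traced astrocytes. Leaving out a library gave 1657 to 2886 genes between NSC origins, 2719 to 5194 between traced NSCs, 936 to 1591 between traced astrocytes and 1317 to 2493 for the traced line by fate interaction, with 1 to 2 Sox genes in the last (Sox8 was gained without hippocampal astrocyte replicate 1). The cause was not tested.

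Same-numbered replicates of different lines in a fate had deviations that correlated weakly (mean 0.106, 0.012 to 0.313, 18 pairs). For different numbers the mean was -0.053 (-0.345 to 0.120, 36 pairs). Between fates of a line the mean was -0.023 for the same number (9 pairs) and 0.012 for different numbers (18 pairs). Deviations were taken from the group mean, which ties the mean for different numbers to that for the same number, so it is no separate comparison. The labels do not tie a number to a shared day or passage, and not every pair passed 0.1, so the numbers were not taken to pair the samples. The same-number values between lines are all above 0, though, a hint from the data of a shared component. With a replicate block, 4 Sox genes (Sox21 and, added, Sox1 at 0.340, Sox3 at -0.358 and Sox5 at -0.159, adjusted p 0.018, 0.018 and 0.02) and 3049 genes in all were called between traced astrocytes, against 1 and 1641 without it. The block also removed Sox5 between NSC origins and added Sox3 and Sox6 between astrocyte origins and Sox1 and Sox3 to the origin by fate interaction. The depth of each library beyond the labelled minimum is unknown, and 3 cultures of 1 line per group limit the precision.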
